A study of Caenorhabditis elegans with 4 samples.

Results

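The genes of the SWI/SNF chromatin remodelling complex were examined in a ChIP-seq experiment on the worm Caenorhabditis elegans, as places where the tagged protein K09A11.1 was recovered. The members are 8 genes chosen by name, swsn-1, swsn-3, swsn-4, swsn-6, swsn-7, swsn-8, swsn-9 and snfc-5, and they were chosen with their region signals already known, so the values below describe them and none was tested. Of the 8, 7 were found by name among the 19973 protein-coding genes of the nuclear chromosomes in the Ensembl annotation. The name swsn-8 is not used in that annotation, and the gene was not counted among the members. All samples were late embryos of whole hermaphrodites of the strain OP372, whose genotype is unc-119(tm4063) III with the integrated transgene wgIs372. In this line K09A11.1 carries a C-terminal GFP-FLAG tag, chromatin was sheared by sonication, and the tagged protein was precipitated with an antibody against GFP. The 4 libraries form 1 group and come from 2 biological replicates with 2 technical libraries each, so there is no comparison between conditions. The animals carried the tagged copy from a transgene of a single line, and the material was whole animals, so the cells in which a region was occupied cannot be told apart.

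SWI/SNF complexes use the energy of ATP to slide or evict nucleosomes and so change which DNA other proteins can reach. They are built from a catalytic ATPase, a core shared by all forms of the complex, and accessory subunits that distinguish the BAF form from the PBAF form. In C. elegans they are known for roles in asymmetric cell division, cell fate and the exit from the cell cycle. ChIP-seq reports where a tagged protein is found on DNA, and a region upstream of a subunit gene says nothing by itself about the expression of that gene.

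The deposited files are lists of regions on genome build ce11, which is the assembly WBcel235. Each ranked list holds 30000 candidate regions with a signal value given by the authors. There is 1 list for replicate 1, 1 for replicate 2 and 1 for both together, here called the pooled list. The authors also deposited a thresholded list made with the irreproducible discovery rate (IDR), which measures whether ranks recur between replicates. It holds 689 regions, of which 663 are nuclear and 26 mitochondrial. They are the first 689 of the pooled list by signal, with a lowest value of 30.4. The authors label this list the optimal set. A place in it does not mean that a region recurs in both replicate lists. Of the 663 nuclear regions, 603 had a summit within 100 bp in both. The 2 replicate lists share 1 control. The lists give no read counts, so the depth is unknown, signals of different lists are not on a common scale, and no error can be attached to a single signal beyond the values of the 2 replicates. A region was placed at a promoter when its summit lay in the window that runs, for a protein-coding transcript, from 1000 bp before its annotated start to 200 bp after it.

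Among the 7 genes, swsn-3 and swsn-6 had a thresholded region at the promoter, and the sequences of these regions are shown because the results turn on them. The swsn-3 region covers chrIII:2768759-2768938 and is printed whole on the minus strand, which is the strand of the gene, with the summit at position 92 counted from the 5′ end. The swsn-6 sequence is the stretch between the 5′ ends of the divergent genes perm-3 and swsn-6, chrIV:5394805-5395032 on the plus strand, the strand of swsn-6, with the summit at position 155. The swsn-7 sequence is the 101 bp window around the summit of its highest promoter region, chrII:8028284-8028384 on the minus strand, and is shown because that region was the highest of the other members although it did not reach the threshold. Bases are from the RefSeq copy of WBcel235. Capitals mark matches, on either strand, to 7 words of 6 bases: CGCGCA and the similar GCGCAC, the mixed word CGAACC, the TATA-box word TATAAA, the palindrome CACGTG, the repeat GAGAGA and the word TTTCGC.
swsn-3: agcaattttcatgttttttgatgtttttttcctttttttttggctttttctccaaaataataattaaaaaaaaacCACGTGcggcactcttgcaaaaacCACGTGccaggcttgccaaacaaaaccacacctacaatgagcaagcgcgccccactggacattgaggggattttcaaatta
swsn-6: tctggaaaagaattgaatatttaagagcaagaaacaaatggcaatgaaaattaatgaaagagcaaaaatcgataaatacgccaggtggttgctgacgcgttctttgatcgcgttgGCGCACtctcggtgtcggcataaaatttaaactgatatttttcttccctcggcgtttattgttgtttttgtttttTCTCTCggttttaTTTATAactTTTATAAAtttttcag
swsn-7: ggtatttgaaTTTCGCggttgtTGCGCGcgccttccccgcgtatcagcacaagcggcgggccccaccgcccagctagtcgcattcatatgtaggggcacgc

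The swsn-3 region held the palindrome CACGTG at 2 places, positions 76 to 81 and 100 to 105 of the sequence above. CACGTG is a form of the E-box, CANNTG with N for any base, and some basic helix-loop-helix factors bind this form. The summit lies between the copies, 11 bp past the last base of the first copy and 8 bp before the first base of the second. The copies start 24 bp apart with 18 bp between them. Both are set in the same 13 bases, which occur 9 times in the whole genome.
shared 13 bases, with the palindrome in capitals: aaaaacCACGTGc
Of the 663 nuclear thresholded regions, 14 (2.11%) held CACGTG in the 101 bp around the summit, and 1, the region of swsn-3, held it more than once. For comparison, 5.83% of all protein-coding promoters, taken as the 300 bp from 250 bp before a 5′ end, held CACGTG, and 62 of 19973 (0.31%) held it more than once. The promoters are longer than the summit windows, 300 bp against 101 bp, so the 2 kinds of share cannot be compared directly. These shares describe the letters only, and the pair was singled out after the sequence had been seen.

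The other words were spread differently over the members. The swsn-6 summit window held GCGCAC once, at position 12 of its 101 bases, and GAGAGA once, at position 87 and on the opposite strand. GCGCAC was present in 14.3% of the thresholded windows and 5.60% of promoters, and GAGAGA in 22.2% and 21.8%. Here too the windows are 101 bp and the promoters 300 bp, so equal shares do not mean equal density. The 3 matches to TATAAA in the swsn-6 sequence overlap in part, lie next to the 5′ end of the gene and none lies wholly inside the summit window. TATAAA was found in 3.92% of the thresholded windows and 38.0% of promoters. The swsn-7 summit window held CGCGCA and TTTCGC once each, words found in 14.2% and 12.2% of thresholded windows and in 6.08% and 18.2% of promoters. The window of swsn-1 held GAGAGA at 6 positions, some overlapping, and that of snfc-5 held none of the 7 words. CGAACC, found in 10.9% of thresholded windows and 3.85% of promoters, was in no summit window of the 5 members with a pooled promoter region.

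In base composition over 101 bp the members' summits differed from each other and, for both thresholded ones, lay on the AT-rich side of the list. For swsn-3 this depends on the width, since the 51 bp at its summit had 51.0% G and C against a mean of 50.3%. The 101 bp around the swsn-3 summit had 41.6% G and C, and 550 of the 663 thresholded windows had more. The flanks, stretches further out on both sides, had 33.2%. The 101 bp around the swsn-6 summit had 38.6%, with 46.5% in the flanks, and 589 of 663 had more. The median of all thresholded windows was 49.5%, with quartiles of 44.6% and 54.5%. That list is not limited to promoters. The 300 bp promoters of swsn-3 and swsn-6 had 37.3% and 36.3%, against a median of 34.3% over 19973 protein-coding promoters. Among the members below the threshold, swsn-7 had 62.4% G and C, a share exceeded by 8 of the 663 thresholded windows, swsn-1 had 52.5% and snfc-5 had 31.7%. None of the 70 words of 32 bases in each of these 5 windows occurred anywhere else in the genome.

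**Figure D1:**
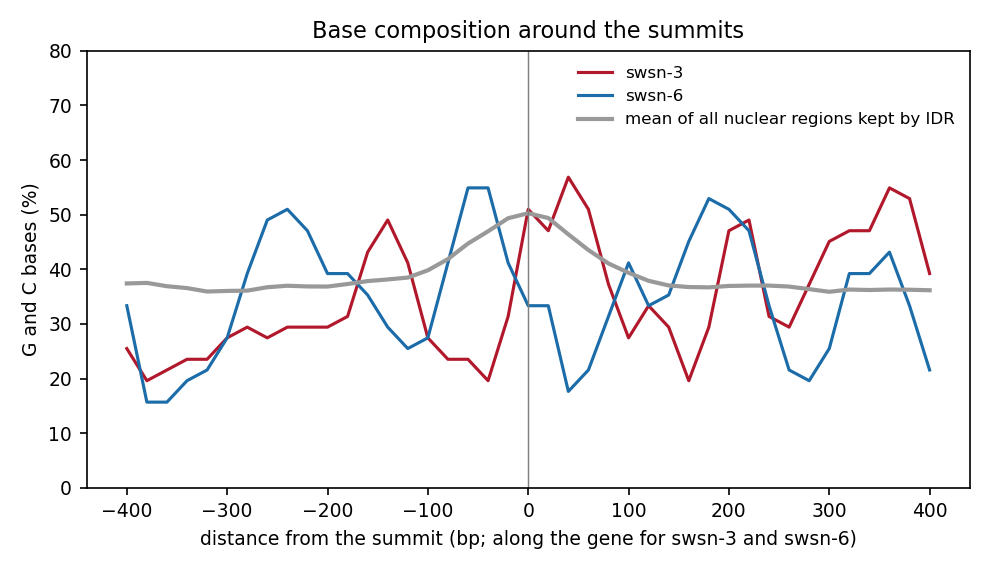
Share of G and C bases (%) in sliding 51 bp stretches by distance from the summit (bp) for swsn-3, swsn-6 and the mean of the 663 nuclear thresholded regions. The mean peaks at the summit at 50.3%. The gene swsn-3 stands at 51.0% there, with 19.6% at 40 bp upstream and 56.9% at 40 bp downstream. The gene swsn-6 is at 33.3% at its summit, with 54.9% at 40 bp upstream and 17.6% at 40 bp downstream.

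The accessory subunit gene swsn-3 encodes the worm counterpart of human SMARCE1, an HMG-box protein that contacts DNA. It lies at chrIII:2764010-2768679 on the minus strand (WBGene00022182) and has 1 annotated 5′ end. Its promoter region had a signal of 135.5 in the pooled list, of 97.0 in the replicate 1 list and of 41.6 in the replicate 2 list. The region was ranked 29, 27 and 35 in these lists, so it stood near the top in each. The summits lay 168, 189 and 160 bp upstream of the 5′ end. Among the 663 nuclear thresholded regions it was ranked 11, and 10 of the 19973 protein-coding genes had a pooled promoter region of higher signal. Its −log10 q-value was 2.999 in the pooled list, 2.93 in replicate 1 and 2.71 in replicate 2, the maximum found in each list. These maxima are shared with lower regions, the pooled one for instance at rank 464 and that of replicate 2 at rank 769. The region was 180 bp wide, where 340 bp was the commonest width, and 19 of the 663 nuclear regions were narrower.

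The swsn-3 summit fell outside the gene, and no other protein-coding promoter window held it. It lies in an intron of cox-6B, a gene for a subunit of cytochrome c oxidase that is annotated on the opposite strand over chrIII:2699663-2786859, but the nearest cox-6B 5′ end is 17355 bp away. The next protein-coding gene upstream on the same strand, laf-1, which encodes an RNA helicase, ends 676 bp before swsn-3. The other listed regions near swsn-3 were far lower. Within 3000 bp on either side of the 5′ end the pooled list held 5 regions, and the second highest had a signal of 12.5, at 1551 bp inside the gene. In the replicate 1 list the second highest had a signal of 9.94 and in the replicate 2 list 7.11, at different places.

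The gene swsn-6 encodes an actin-related protein, the counterpart of human ACTL6A, found in both BAF and PBAF complexes. It lies at chrIV:5395033-5396969 on the plus strand (WBGene00022774). Its promoter region, chrIV:5394789-5395128, had a signal of 42.3 in the pooled list, of 30.3 in the replicate 1 list and of 9.85 in the replicate 2 list. The ranks were 405, 356 and 1400, so in replicate 2 alone the region fell outside the first 689. The summits lay 74, 74 and 32 bp upstream of the 5′ end. Its rank among the nuclear thresholded regions was 379, and 271 protein-coding genes, 1.36% of all, had a pooled promoter region of higher signal. The −log10 q-value was 2.999 in the pooled list, 2.93 in replicate 1 and 2.27 in replicate 2.

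The swsn-6 region cannot be given to swsn-6 alone. The gene shares an intergenic interval of 228 bp with perm-3, a gene named for a permeable eggshell that is transcribed the other way, and the summit lies 155 bp upstream of the perm-3 5′ end. The summit also lies in an exon of ZK616.62, a noncoding RNA annotated on the strand opposite to swsn-6. In the pooled list 1 other region was found within 3000 bp of the 5′ end, with a signal of 7.46 at 2752 bp upstream.

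**Figure D2:**
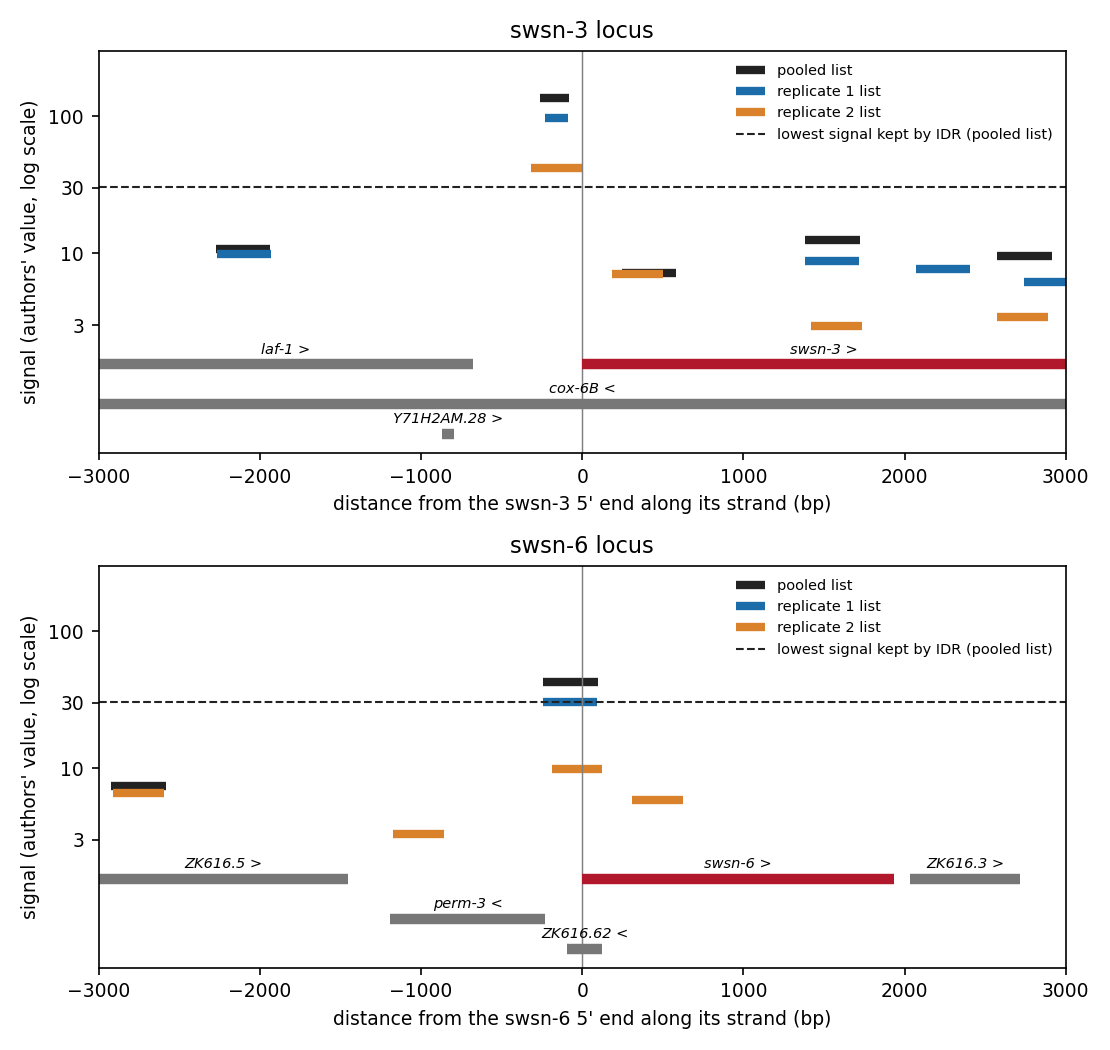
Regions within 3000 bp of the swsn-3 5′ end (top) and the swsn-6 5′ end (bottom), drawn as bars over their width at the height of their signal (log scale) in the pooled, replicate 1 and replicate 2 lists, with annotated genes beneath and arrowheads for their direction. At swsn-3 the promoter region has signals of 135.5, 97.0 and 41.6, and at swsn-6 of 42.3, 30.3 and 9.85.

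Of the core, swsn-4 encodes the ATPase, swsn-1 a SMARCC-type scaffold subunit and snfc-5 the counterpart of yeast Snf5 and human SMARCB1. None of the 3 had a thresholded region. The ATPase gene swsn-4, at chrIV:11126024-11131162 on the plus strand, had no region in the pooled list at its promoter or in its body. In the replicate 1 list its highest promoter region had a signal of 8.12 at rank 11452, 175 bp upstream, and in the replicate 2 list of 4.17 at rank 15466, 795 bp upstream. These signals are near the list medians of 7.30 and 4.24, and these places differ between replicates. The −log10 q-values of these regions were 0.193 in replicate 1 and 0.422 in replicate 2. A region in an exon near the 3′ end of swsn-4 was listed at almost the same place in both, 4894 bp downstream of the 5′ end in replicate 1 (signal 7.09, rank 16133) and 4895 bp downstream in replicate 2 (signal 4.32, rank 14434). The −log10 q-values there were only 0.131 and 0.459. How often regions this low coincide between the lists was not computed.

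For swsn-1, at chrV:20239182-20249488 on the minus strand with 5 annotated 5′ ends, the highest promoter region had a signal of 13.8 in the pooled list, of 5.38 in replicate 1 and of 6.46 in replicate 2. Its ranks were 5131, 27851 and 5151, and the summits lay 425, 425 and 435 bp upstream. The place was therefore shared by both replicate lists although the region stood near the end of the replicate 1 list. The −log10 q-value of this region was 0.188 in the pooled list, 0.059 in replicate 1 and 1.12 in replicate 2. A second pooled promoter region, with a signal of 7.05 at rank 29731, lay 73 bp downstream of an internal 5′ end.

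For snfc-5, at chrIII:4404786-4406285 on the plus strand, the highest promoter region had a signal of 19.8 in the pooled list, of 9.15 in replicate 1 and of 11.5 in replicate 2. Its ranks were 1611, 8052 and 901, and the summits lay 364, 386 and 364 bp upstream. The pooled summit falls 14 bp inside the divergent gene R07E5.17, in an exon. In replicate 2 the −log10 q-value of this region was 2.41 and in replicate 1 it was 0.275, so the replicates rank it far apart.

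Neither swsn-7 nor swsn-9 had a thresholded promoter region. The PBAF subunit gene swsn-7 encodes an ARID2-type protein and lies at chrII:8022632-8027763 on the minus strand. Its highest promoter region had a signal of 22.95 in the pooled list, of 15.7 in replicate 1 and of 8.82 in replicate 2, at ranks 1151, 1264 and 1961. The summits lay 571, 566 and 708 bp upstream, so that of replicate 2 is over 100 bp from the others. The pooled summit lies in an exon of the noncoding RNA C08B11.11. It also lies 89 bp upstream of the 5′ end of C08B11.13, a noncoding RNA on the same strand as swsn-7. This region therefore cannot be given to swsn-7 alone. The pooled list also held a region of signal 18.1 at rank 2082 in an exon of swsn-7, 1384 bp downstream of the 5′ end, with regions of 10.8 in replicate 1 and 6.98 in replicate 2 at 1383 and 1326 bp.

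The gene swsn-9, which encodes a bromodomain protein of the BRD7 and BRD9 type and lies at chrI:7224656-7227765 on the plus strand, had no region in the pooled or replicate 1 list. In the replicate 2 list it had a promoter region with a signal of 2.77 at rank 29460 and a region in the body with a signal of 3.25 at rank 23803. The lowest signal of that list is 2.73, so both stand near its end. The −log10 q-value was 0.134 for the promoter region and 0.220 for the region in the body. Worm researchers also use the name swsn-8 for let-526, the ARID1-type subunit gene of the BAF form, but no file used here pairs the names. The let-526 gene had no thresholded promoter region. It had a thresholded region in an intron on chromosome I, 606 bp downstream of the nearest 5′ end, with a signal of 35.7 in the pooled list at rank 518. Replicate 1 had a region of signal 20.8 at rank 660 there, 668 bp downstream, and replicate 2 of 14.8 at rank 489, 658 bp downstream.

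**Figure D3:**
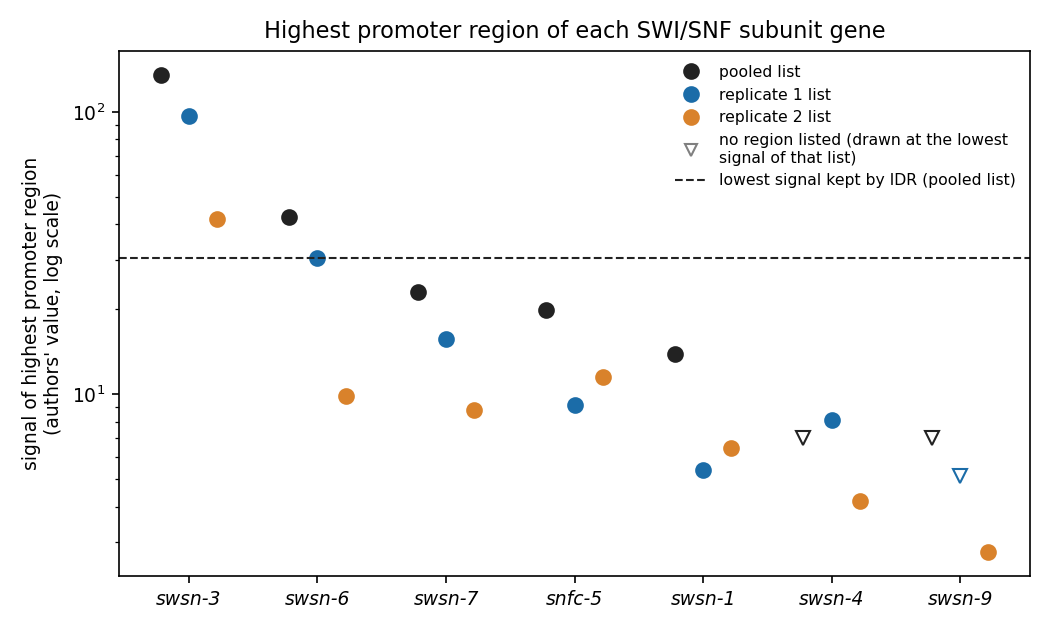
Signal (log scale) of the highest promoter region of each of the 7 genes in the pooled, replicate 1 and replicate 2 lists, with open triangles at the lowest signal of a list where no region was listed and a dashed line at 30.4, the lowest thresholded signal in the pooled list. The pooled signals of swsn-3 (135.5) and swsn-6 (42.3) stand above the line and those of swsn-7, snfc-5 and swsn-1 (22.95, 19.8 and 13.8) below it.

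As counts, 2 of the 7 genes had a thresholded region at the promoter, against 498 of all 19973 protein-coding genes (2.49%). With gene bodies added the count was again 2 of 7, against 640 genes (3.2%). The gene let-526, for which the name swsn-8 is also used, had a thresholded region in its body and is not among the 7. Any ranked region of the pooled list was found at the promoter of 5 of the 7, against 8420 genes (42.2%). A promoter region among the first 689 of both replicate lists was found for 1 of the 7, swsn-3, against 283 genes (1.42%). Because the genes were selected on these signals, nothing is read from the difference between their counts and those of all genes. Over the 5 members with a pooled promoter region the median highest signal was 22.95, and over the 8420 genes with one it was 11.0. The members nearest to the threshold of 30.4 on each side were swsn-6, with 42.3 at rank 405, and swsn-7, with 22.95 at rank 1151, and neither lies close to it.

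**Figure D4:**
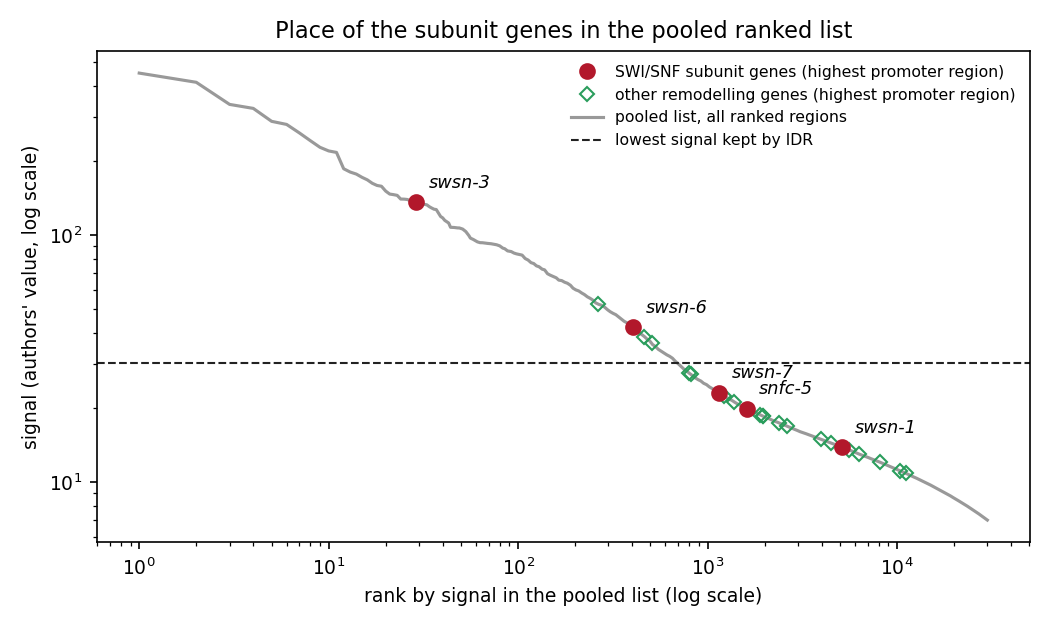
Signal against rank in the pooled list (both log scale), with the highest promoter region of the 5 members that had one as filled circles, those of other remodelling genes as open diamonds, and a dashed line at 30.4, the lowest thresholded signal. The member swsn-3 stands apart at rank 29, and the other members are spread from rank 405 (swsn-6) to rank 5131 (swsn-1).

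The members did not keep 1 order between replicates. In both lists swsn-3 was first, by a wide margin. In replicate 1 the next were swsn-6 (30.3), swsn-7 (15.7) and snfc-5 (9.15). In replicate 2 the next were snfc-5 (11.5), swsn-6 (9.85) and swsn-7 (8.82), whose signals lie close together. The ratio of the replicate 1 signal to the replicate 2 signal was 2.33 for swsn-3 and 3.08 for swsn-6. Over the 603 nuclear thresholded regions found in both replicate lists its median was 1.90, with quartiles of 1.34 and 2.72, so swsn-6 lies beyond the upper quartile and swsn-3 within the quartiles. Of the 16 pooled regions at the promoters or in the bodies of the members, 11 had a summit within 100 bp in the replicate 1 list, 8 in the replicate 2 list and 6 in both. The same shares over all pooled regions were not computed, so these counts do not show whether the members are unusual.

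**Figure D5:**
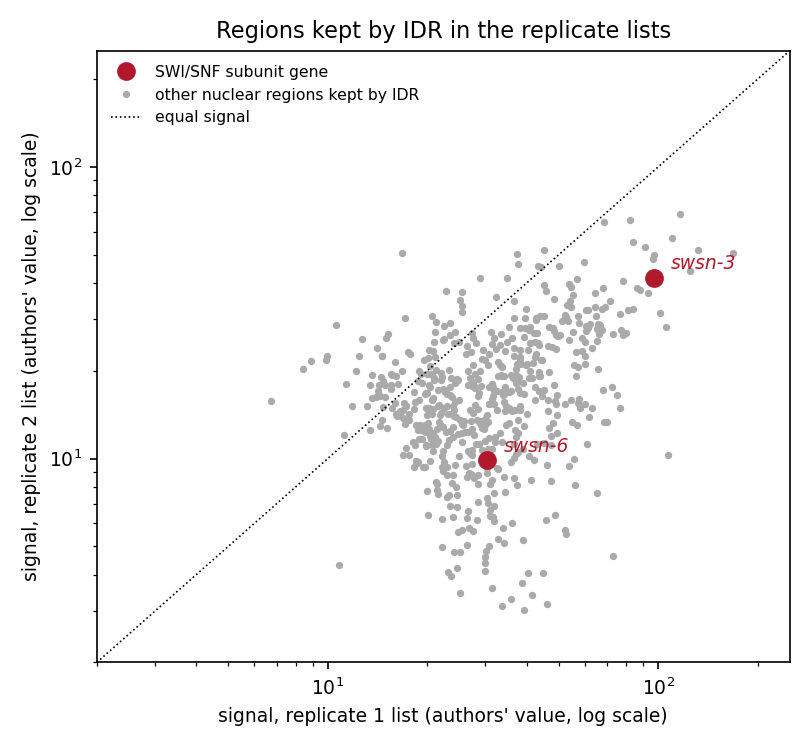
Signal in the replicate 1 list (horizontal axis) against signal in the replicate 2 list (vertical axis), both log scale, for the 603 nuclear thresholded regions found in both lists, with a dotted line of equal signal. The region of swsn-3 (97.0 and 41.6) lies among the highest points, and that of swsn-6 (30.3 and 9.85) lies in the lower part of the cloud.

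The genes whose thresholded promoter regions were nearest to swsn-3 in their signals in both replicate lists were sre-23, Y51F10.11 and spe-48, among 478 genes compared by distance on the log2 scale. The signals were 92.8 in replicate 1 and 36.9 in replicate 2 for sre-23, a gene of a chemoreceptor family, at a log2 distance of 0.18. Y51F10.11 and spe-48 share 1 region, with signals of 87.8 and 37.8 and a log2 distance of 0.20. The likeness is in 2 values only.

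Other chromatin remodelling genes, from a list of 28 of which 26 were found by name, gave 3 with a thresholded promoter region. The share over all protein-coding genes was 2.49%. These were pbrm-1, the polybromo subunit of PBAF (signal 52.5, rank 265), lin-53, a histone-binding protein of several chromatin complexes (38.8, rank 464), and xnp-1, an ATRX-type ATPase (36.7, rank 507). In the replicate 1 list these regions had signals of 30.7 (rank 346) for pbrm-1, 28.2 (rank 395) for lin-53 and 22.2 (rank 586) for xnp-1. In the replicate 2 list they had signals of 17.6 (rank 330) for pbrm-1, 11.2 (rank 963) for lin-53 and 4.97 (rank 10548) for xnp-1. Of the 3, pbrm-1 alone was among the first 689 of both replicate lists. The pbrm-1 summit lies in an intron, 871 bp upstream of an internal 5′ end, and the lin-53 region is shared with the promoter window of nra-2. With gene bodies added the count was 4, against 3.2% of all protein-coding genes. The added gene is let-526, for which the name swsn-8 is also used. It was kept in this list and not counted among the members. A pooled promoter region of any rank was found for 19 of the 26, against 42.2% of all genes. The median highest signal was 18.5, against 11.0 over all genes with such a region. These differences were not tested. More windows are searched for a gene with several annotated 5′ ends, such as nurf-1 with 16 and egl-27 with 14, both in this list. Thus swsn-3 had a higher signal than any of the other remodelling genes listed, and swsn-6 a lower one than pbrm-1. The gene of the tagged protein itself, K09A11.1, had 0 regions at its promoter or in its body in each of the 4 lists.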

How the data were processed

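The 4 ChIP-seq libraries were made from late embryos, in 2 biological replicates of 2 technical libraries each. Per the notes deposited with the libraries, both technical libraries of a replicate were merged in 1 alignment, and the replicates and their pool were called against the same control. The signal values and the −log10 q-values were deposited by the authors, on build ce11. For the aligner, peak caller and cut-off on the IDR, names and versions were not given in the sources used here. Lists on ce10 were not used.

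From these lists, summits were placed on the Ensembl release 115 annotation of WBcel235 with Python 3.11.15, pandas 2.3.3 and numpy 2.4.6. Every region on the nuclear chromosomes lay inside its chromosome, and mitochondrial regions were not checked. A summit was given to every gene whose promoter window or body held it. Summits within 100 bp counted as shared between lists. Lists were ranked by signal and not scaled to each other. The counting was tested on simulated data with planted regions. Words were searched on both strands in the 101 bp around each summit and in the 300 bp promoters.

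The members and lists were chosen with earlier results of these data known, and the words CGCGCA and the similar GCGCAC, and likewise the word CGAACC, come from an earlier account of these regions. The genes named are the members, genes that share a thresholded region with them, remodelling genes with a thresholded region, K09A11.1 and the 3 genes nearest to swsn-3 in both replicate lists. Upstream neighbours and genes at lower regions were named as annotation. Alternatives were the promoter window, overlap in place of the summit, the nearest gene alone, stricter thresholds and each replicate left out. Biological replicates are as the labels number them, and with no test there is no p-value.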

Additional observations from a re-analysis of the deposited data

How the results depend on the processing

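The count of members with a thresholded promoter region was 2, and it was also 2 with promoters of 500 bp upstream to 100 bp downstream or reaching 2000 bp upstream, with any base of a region counted, or with the nearest gene alone. It was 1, swsn-3, when only the 344 regions of highest signal were kept, where swsn-6 is below the lowest signal of 46.1. Leaving out each replicate gave 1 to 2, with 1 without replicate 1. No IDR list exists for a single replicate, so the highest regions of the other replicate's ranked list stood in, where swsn-6 is at rank 1400 in replicate 2. Members with any ranked promoter region numbered 5, and 4 to 7 across the alternatives. With gene bodies added, the count was likewise 1 among those 344 regions and 1 to 2 with a replicate left out. Of the other remodelling genes 3 had a thresholded promoter region (pbrm-1, lin-53 and xnp-1), and 1, pbrm-1, among those 344 regions. The genes changed with the setting: without replicate 1 they were pbrm-1, egl-27 and nurf-1, without replicate 2 egl-27 was added, the shorter promoter lost pbrm-1, the longer one added rba-1, and the nearest gene alone lost lin-53. With a replicate left out, the signal of swsn-3 was 41.6 to 97.0, against 135.5 in the pooled list, and that of swsn-6 was 9.85 to 30.3, against 42.3; the lower value is that of replicate 2 alone in both cases. The lists are not on a common scale, and the cause of these differences was not tested. The number of pooled regions at members found in both replicate lists was 5 with summits within 50 bp and 8 within 200 bp, against 6. Depth is unknown and both replicates share 1 control. No paired analysis was possible because the libraries form 1 group.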
